A study of Mus musculus with 7 samples.

Results

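The dystrophin-glycoprotein complex links the actin cytoskeleton of muscle fibres to the laminin of the basement membrane, and 8 genes that encode its parts were followed in C2C12 cells depleted of the long noncoding RNA lnc-SMaRT. The genes were chosen by name and are Dmd, Utrn, Dag1, Sgca, Sgcb, Sgcd, Dtna and Sspn. All 8 have a row of their own among the 11642 rows of the deposited expression table. C2C12 cells are cultured mouse muscle precursors that stop dividing and form multinucleated myotubes once serum is reduced. The samples are total RNA libraries of these cells on day 2 of differentiation, 2 from cells given a scramble siRNA (si-SCR) and 2 from cells given a single siRNA against lnc-SMaRT (si-SMaRT). Both groups are wild-type cells of the same line without a transgene. The study describes 2 independent cell populations given these siRNAs. Whether each population received both siRNAs, which would pair the samples, is not stated. The study also sequenced RNA captured with probes against lnc-SMaRT, with LacZ probes, and the input, in 1 library each.

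Dystrophin, encoded by Dmd, binds actin with its N-terminal part and the complex with its C-terminal part. Utrophin is its paralog and can take its place at the membrane. Dystroglycan, encoded by Dag1, is cut into an extracellular subunit that binds laminin through its sugar chains and a transmembrane subunit that binds dystrophin. The sarcoglycans and sarcospan form a lateral subcomplex, and dystrobrevin, encoded by Dtna, is a cytoplasmic relative of dystrophin that carries syntrophins. Loss of dystrophin, or of a sarcoglycan encoded by Sgca, Sgcb or Sgcd, causes muscular dystrophy. On GRCm38 (GENCODE M21), Dmd lies on chrX:82948870-85206141, Sspn on chr6:145931641-145965223 and Dtna on chromosome 18, all on the plus strand. On the minus strand lie Utrn (chr10:12382188-12869365), Dag1 (chr9:108204634-108263958), Sgca (chr11:94962791-94976327), Sgcb (chr5:73632749-73647790) and Sgcd (chr11:46896253-47988969).

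Values are RPKM, reads scaled by gene length and by library size, as made by the authors, so that levels of different genes are compared per length. The reads behind them, worked out from the step that 1 read makes in the values of a gene, summed to between 12688542 and 16576699 per library. These sums lie above the library sizes of 11291255 to 14312935 that the RPKM values imply, and the cause was not tested. Lnc-SMaRT itself, on the X chromosome at 12339782 to 12354996 of GRCm38 on the minus strand, had 19.1 and 15.9 RPKM in si-SCR and 2.88 and 3.65 in si-SMaRT, a log2 difference of -2.39 ± 0.28 (SE, n = 2 per group). All 8 muscle markers had a row, with a summed level of 6588 and 7398 RPKM in si-SCR and 5685 and 3434 in si-SMaRT. Of 14 markers of neurons, endothelium, leukocytes, adipocytes and fibroblasts, 4 had a row, and their sum was 87.6 and 75.9 RPKM in si-SCR and 128 and 164 in si-SMaRT, most of it from the fibroblast gene Dcn. Defining markers such as Pecam1, Cdh5, Ptprc and Adipoq had no row.

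The promoters of Dmd and Sgca are shown because these were the members with the lowest values in si-SMaRT relative to si-SCR. Of the 8 genes, 7 matched the RefSeq promoter table (GRCm38.p6), from which the 250 bases before a start are given 5′ to 3′. Capitals mark E-boxes (CANNTG, the sites of MyoD and myogenin), CArG boxes (the site of serum response factor) and MEF2 sites, each searched on both strands.
Dmd, first start, chrX:82948620-82948869, plus strand: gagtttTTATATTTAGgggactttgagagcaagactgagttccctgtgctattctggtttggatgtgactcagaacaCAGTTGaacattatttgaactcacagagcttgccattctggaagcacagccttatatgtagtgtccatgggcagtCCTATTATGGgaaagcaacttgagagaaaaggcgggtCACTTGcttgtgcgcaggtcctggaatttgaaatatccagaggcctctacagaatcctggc
Dmd, start within the gene, chrX:85048045-85048294, plus strand: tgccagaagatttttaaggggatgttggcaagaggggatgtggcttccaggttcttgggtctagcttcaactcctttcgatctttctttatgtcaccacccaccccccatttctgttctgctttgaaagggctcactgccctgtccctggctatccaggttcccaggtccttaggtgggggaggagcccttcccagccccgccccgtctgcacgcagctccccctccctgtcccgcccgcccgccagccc
Sgca, chr11:94976328-94976577, minus strand: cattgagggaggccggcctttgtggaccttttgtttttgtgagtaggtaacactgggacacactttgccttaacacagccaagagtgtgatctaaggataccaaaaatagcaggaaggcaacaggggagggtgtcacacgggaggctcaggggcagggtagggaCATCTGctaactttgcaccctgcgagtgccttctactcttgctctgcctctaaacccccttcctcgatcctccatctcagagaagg
The window before the first Dmd start held 2 E-boxes, 1 CArG box and 1 MEF2 site. The window before the start within the gene held none of these, and 3 GC boxes (GGGCGG, on either strand, left in lower case). The Sgca window held 1 E-box and none of the others. Among all 32851 promoters of this length, 66.2% held an E-box, 1.47% a CArG box, 2.92% a MEF2 site and 32.7% a GC box. These matches describe the letters of the windows and were not tested as binding sites. The RPKM of Dmd sums reads of all its transcripts, so that products of the 2 starts are not separated.

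The complex genes differed widely in level before any comparison of the groups. In si-SCR, Sgca (55.8 ± 0.891 RPKM, mean ± SD, n = 2), Dag1 (53.7 ± 12.6) and Sgcb (48.3 ± 1.25) were highest, and neighbours in this order overlapped between samples. Utrn followed at 25.8 ± 4.80 RPKM, then Dtna at 7.95 ± 0.957, Sspn at 7.05 ± 0.211, Sgcd at 2.70 ± 0.0767 and Dmd at 1.75 ± 0.190, each without overlap with the next. Dmd was therefore the member with the lowest level, above 19.5% of all rows of the table, whereas Sgca was above 91.5%. Dmd spans 2257272 bases and its RPKM rest on an exonic length of 23801 bases, while its longest annotated transcript has 14910, so that a value per length of that transcript would be 2.80. For Sgcd these lengths are 8257 and 4453 bases and the value would be 5.01, and for Dtna they are an estimated 19761 and 6295 bases and the value would be 24.95, beside 25.8 for Utrn. The order of Utrn, Dtna and Sspn thus holds for the deposited RPKM, and on the other scale Dtna overlaps with Utrn. In si-SMaRT, Dag1 came first at 73.1 ± 15.6 RPKM, and Sgca (30.6 ± 13.1) stood after Sgcb (52.3 ± 8.62) and overlapped with Utrn (25.8 ± 0.785). Sspn (9.55 ± 1.1) then preceded Dtna (5.84 ± 1.32), and Sgcd (2.60 ± 0.643) and Dmd (0.978 ± 0.394) were again last.

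**Figure D1:**
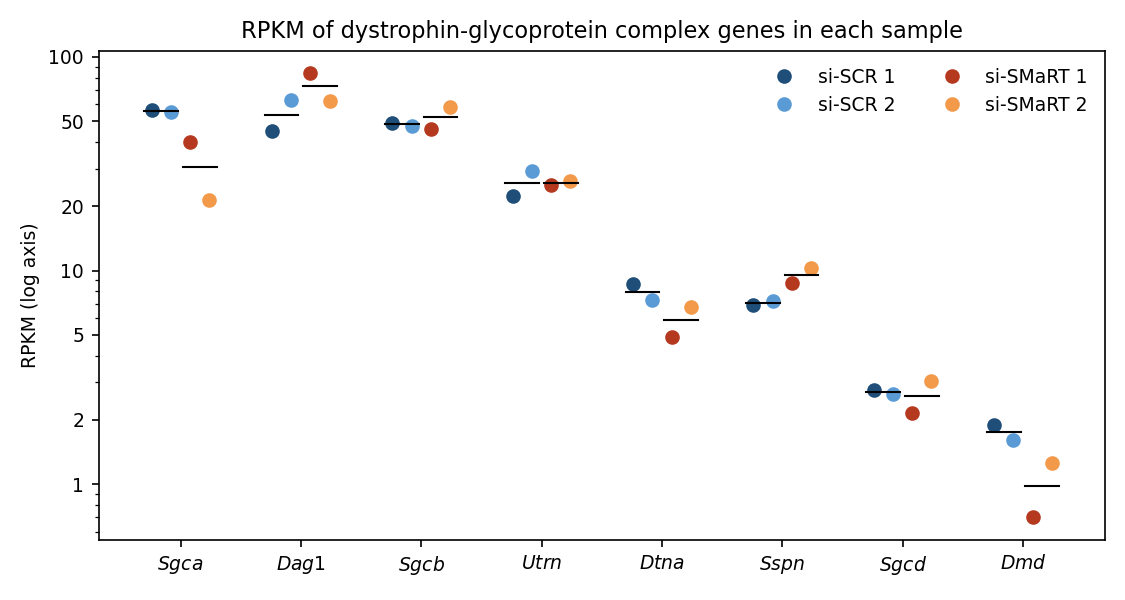
RPKM (log axis) of the 8 complex genes in each of the 4 samples, ordered by their mean in si-SCR, with points for samples and black lines for the mean of each group of 2. Both si-SMaRT points lie under both si-SCR points for Sgca, Dtna and Dmd and above them for Sspn, and the groups overlap for Dag1, Sgcb, Utrn and Sgcd.

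To ask whether depletion of lnc-SMaRT was accompanied by other levels of these genes, si-SMaRT was compared with si-SCR with limma on log2(RPKM + 0.1), a scale that understates changes of low genes such as Dmd. Adjusted p-values are those of Benjamini and Hochberg over all 11086 genes tested. None of the 8 members passed the threshold of 0.05, and 56 of all genes did (0.505%). At an unadjusted p under 0.05, 2 members were lower, Dmd and Sgca, and none was higher, against 5.6% of all genes on the lower side. The groups did not overlap with si-SMaRT lower for 3 members (Dmd, Sgca and Dtna) and with si-SMaRT higher for 1 (Sspn). Over all genes tested this was so for 20.4% and 20.2%. The median log2 difference of the members was -0.03, against 0.02 over all genes. In RNA of whole cultures, fewer cells of a type and less RNA per cell cannot be told apart.

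Dmd had 1.89 and 1.62 RPKM in si-SCR and 0.700 and 1.26 in si-SMaRT. These rest on 568, 544, 188 and 428 reads, and the exact Poisson 95% intervals of si-SMaRT 1 (0.603 to 0.807) and si-SMaRT 2 (1.14 to 1.38) do not meet, which covers counting error only. Both si-SMaRT values were under both si-SCR values, and the si-SMaRT samples differed from each other more than the si-SCR samples did. The log2 difference was -0.83 ± 0.34 (SE), with a 95% interval from -1.55 to -0.10 (limma, adjusted p = 0.441). Without si-SMaRT 1 it was -0.45 (adjusted p = 0.254), and without si-SMaRT 2 it was -1.21 (adjusted p = 0.00299), in limma fits in which the lone si-SMaRT sample is assumed to vary like si-SCR and 2908 and 941 of all 11086 genes passed.

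Utrn, the paralog, had 22.4 and 29.2 RPKM in si-SCR and 25.2 and 26.3 in si-SMaRT. The si-SMaRT values lay between those of si-SCR. The log2 difference was 0.01 ± 0.27 (SE, n = 2 per group), with an interval from -0.55 to 0.57 that leaves room for a change of either sign (limma, adjusted p = 0.996). The ratio of utrophin to dystrophin RPKM within a sample, from which the library scaling cancels, was 11.9 and 18.1 in si-SCR and 36.0 and 21.0 in si-SMaRT. It was higher in both si-SMaRT samples, by 0.91 on the log2 scale, and an exact two-sided permutation test gave p = 0.333, the smallest that 2 against 2 samples allow.

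Among the transmembrane members, Sgca (alpha-sarcoglycan, made mainly in striated muscle) had 56.5 and 55.2 RPKM in si-SCR and 39.8 and 21.3 in si-SMaRT, from 1240, 1354, 780 and 530 reads. The si-SCR samples nearly coincided, and both si-SMaRT samples were lower, at levels far from each other. The log2 difference was -0.94 ± 0.30 (SE), with a 95% interval from -1.57 to -0.30 (limma, adjusted p = 0.250). Without si-SMaRT 2 it was -0.49, and without si-SMaRT 1 it was -1.38, in the same fits of a lone si-SMaRT sample, whose spread comes from si-SCR alone.

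Sgcb (beta-sarcoglycan, which with delta-sarcoglycan forms the core of the subcomplex) had 49.2 and 47.4 RPKM in si-SCR and 46.2 and 58.4 in si-SMaRT, with overlapping groups and a log2 difference of 0.10 ± 0.26 (SE, limma, adjusted p = 0.946). Sgcd (delta-sarcoglycan) had 2.76 and 2.65 RPKM in si-SCR and 2.15 and 3.05 in si-SMaRT, so that the si-SMaRT samples stood on either side of the si-SCR samples. Its log2 difference was -0.07 ± 0.30 (SE, limma, adjusted p = 0.969). The ratio of Sgca to Sgcb RPKM within a sample, 1.15 and 1.16 in si-SCR, was 0.862 and 0.366 in si-SMaRT. The difference in log2 ratio was -1.04, with an exact permutation p of 0.333 that 2 against 2 samples cannot go under.

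**Figure D2:**
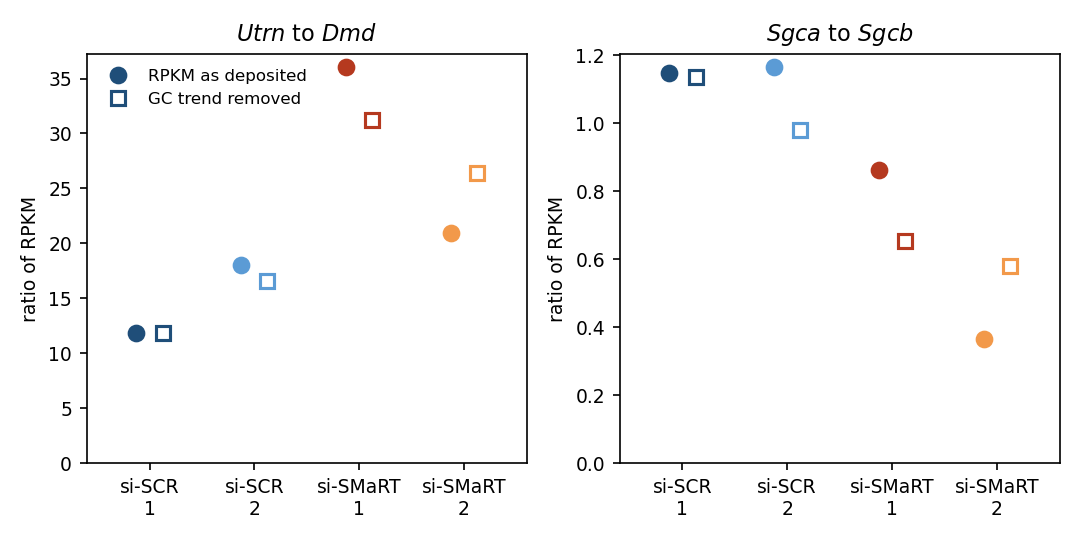
Ratio of the RPKM of Utrn to Dmd (left) and of Sgca to Sgcb (right) in each of the 4 samples, from the deposited values (filled circles) and with the GC trend taken out (open squares). The Utrn to Dmd ratio is higher in both si-SMaRT samples (36.0 and 21.0) than in si-SCR (11.9 and 18.1), and the Sgca to Sgcb ratio is lower.

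Sspn (sarcospan, the tetraspan-like partner of the sarcoglycans) had 6.90 and 7.19 RPKM in si-SCR and 8.77 and 10.3 in si-SMaRT. The groups did not overlap, with a log2 difference of 0.43 ± 0.27 (SE, limma, adjusted p = 0.689). Dag1 had 44.8 and 62.5 RPKM in si-SCR and 84.1 and 62.1 in si-SMaRT, where si-SMaRT 2 fell within the range of si-SCR. Its log2 difference was 0.45 ± 0.28 (SE, limma, adjusted p = 0.686). In the cytoplasm, Dtna had 8.63 and 7.27 RPKM in si-SCR and 4.91 and 6.78 in si-SMaRT. Its groups did not overlap, and the log2 difference was -0.45 ± 0.28 (SE, limma, adjusted p = 0.690).

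The spread between the si-SMaRT samples moved with the GC content of the genes. Across 10399 genes with a known GC content, the log2 difference between si-SMaRT 2 and si-SMaRT 1 had a Spearman rho of -0.847 with GC content, and that between si-SCR 2 and si-SCR 1 one of 0.380. This is a correlation across genes of single libraries, and genes are not independent replicates. The members lay at both ends of this range. Dmd, with a GC content of 41.5% (above 10.7% of rows), was 0.76 higher on the log2 scale in si-SMaRT 2 than in si-SMaRT 1. Sgca, with 56.7% (above 85.7% of rows), had a difference of -0.90 on the same scale. After a loess fit against GC content had been subtracted in each sample, these differences were 0.20 and -0.24. The study's read statistics show that si-SMaRT 1 lost far more of its read pairs to the rRNA and tRNA filter than any other depletion library. The part of that loss in the spread between the si-SMaRT samples was not tested.

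**Figure D3:**
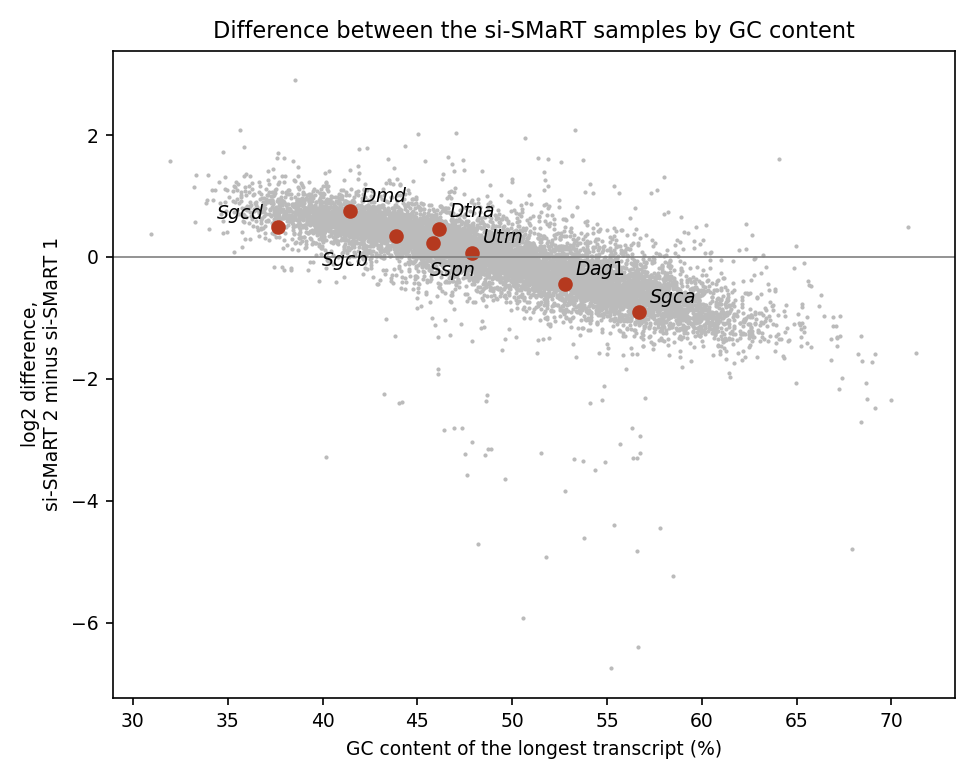
Log2 difference in RPKM between si-SMaRT 2 and si-SMaRT 1 (vertical axis) against the GC content of the longest transcript in percent (horizontal axis) for 10399 genes (grey), with the 8 complex genes in red. Dmd at 41.5% GC lies at 0.76 and Sgca at 56.7% GC at -0.90, within the slope of the grey points.

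With the GC trend removed, Dmd and Sgca passed the threshold, both lower in si-SMaRT, and the other 6 members did not. In that fit 5.43% of all genes passed, and 2.9% passed on the lower side. The loess trends were fitted to these same samples, and limma did not count them. Spread between replicates was thus taken out before it served as the error, so the SE and adjusted p of this fit can be too small. The log2 difference of Dmd was -0.96 ± 0.20 (SE, limma, adjusted p = 0.0330), from adjusted values of 1.89 and 1.78 RPKM in si-SCR and 0.828 and 0.967 in si-SMaRT. That of Sgca was -0.77 ± 0.14 (SE, limma, adjusted p = 0.0254), from 56.0 and 49.8 RPKM in si-SCR and 33.6 and 28.3 in si-SMaRT. Removal of a trend with exonic length in addition left Dmd past the threshold (limma, -1.14, adjusted p = 0.0304) and Sgca just short of it (limma, -0.62, adjusted p = 0.0545). When si-SCR 1 or si-SCR 2 was left out of the GC-removed fit, 0 of all 10399 genes passed, members and lnc-SMaRT included, and the log2 difference of Dmd was -0.92 and -1.0 (limma, adjusted p = 0.390 and 0.164). Dag1 (0.54 ± 0.17, SE, limma, adjusted p = 0.0947), Dtna (-0.52 ± 0.15, adjusted p = 0.0814) and Sspn (0.35 ± 0.13, adjusted p = 0.137) kept their signs, and Utrn had a difference of -0.00030 with an interval from -0.36 to 0.35.

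**Figure D4:**
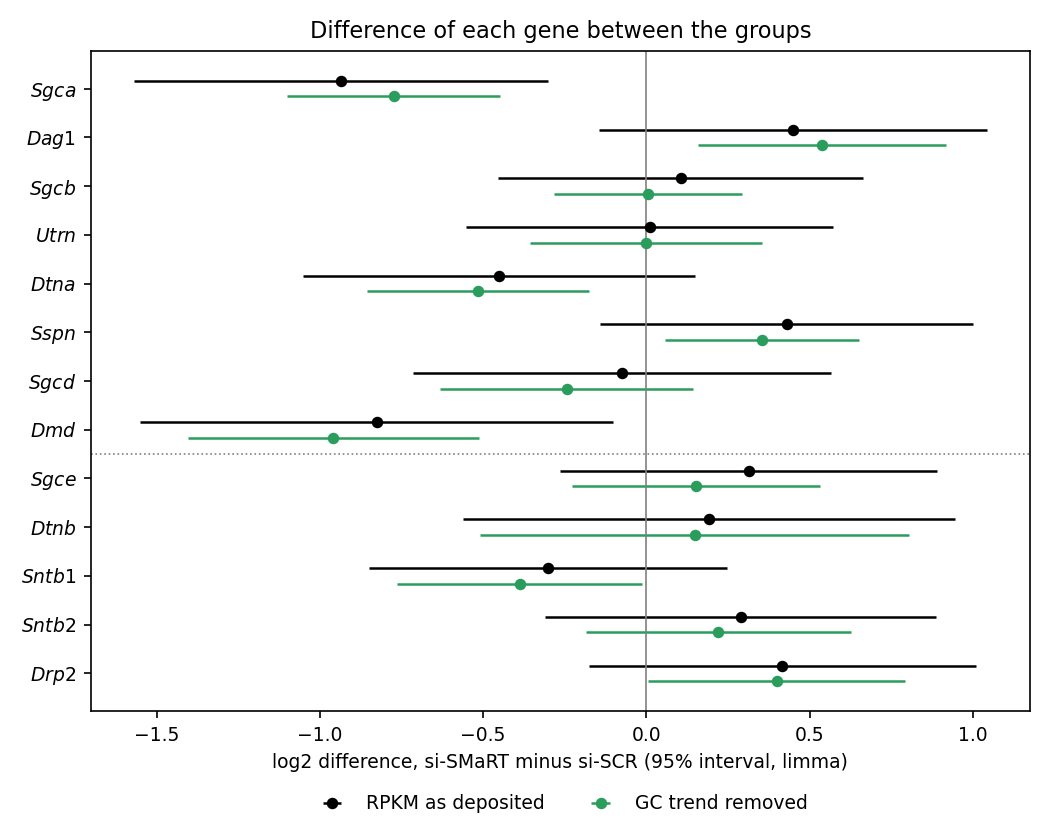
Log2 difference between si-SMaRT and si-SCR with its 95% interval from limma for the 8 members (above the dotted line) and 5 other subunits (below), from the deposited RPKM (black) and with the GC trend removed (green). The intervals of Sgca and Dmd lie under 0 in both fits, with differences of -0.94 and -0.83 in the deposited values, while those of Utrn and Sgcb are centred near 0.

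The level of muscle markers is given beside these genes. Of the 8 markers, none passed the threshold, 7 had a log2 difference under 0 and 6 had groups that did not overlap with si-SMaRT lower (20.4% of all genes), with a median of -0.61. With the GC trend removed, 2 of the 8 passed, both lower, as did 2 of the 8 complex genes. The 2 markers were Ckm (limma, -1.14, adjusted p = 0.0298) and Mef2c, a transcription factor of muscle differentiation (limma, -0.89, adjusted p = 0.0236). Myod1, the marker with a difference above 0, had 54.8 and 70.1 RPKM in si-SCR and 95.9 and 57.7 in si-SMaRT. Its log2 difference was 0.26 (limma, adjusted p = 0.857), and 0.43 with the GC trend removed (limma, adjusted p = 0.101). Ckm, the muscle creatine kinase, had 676 and 641 RPKM in si-SCR and 380 and 201 in si-SMaRT (limma, log2 difference -1.25, adjusted p = 0.106). Dcn, which encodes the matrix proteoglycan decorin, had 65.2 and 55.7 RPKM in si-SCR and 102 and 148 in si-SMaRT (limma, log2 difference 1.03, adjusted p = 0.142), and passed with the GC trend removed (limma, 0.86, adjusted p = 0.0213). The other markers of other cell types with a row had overlapping groups and log2 differences of 0.05 (Pdgfra of fibroblasts, in a row shared with Mir7025), 0.08 (Cd68 of macrophages) and -0.12 (Tubb3 of neurons), and the median of the 4 was 0.06. The part of these markers in the values of Dmd and Sgca was not tested.

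The other subunits, partners, ligands and modifying enzymes were described in the same comparison. Of 8 other subunits examined here, 5 were in the table (Sgcz, Sntg1 and Sntg2 were not) and none passed the threshold. Their median log2 difference was 0.29. Sntb1 (a beta-syntrophin, an adaptor that binds dystrophin and dystrobrevin) had the lowest log2 difference of these 5. Its values were 34.7 and 37.4 RPKM in si-SCR and 30.7 and 27.8 in si-SMaRT. Its groups did not overlap, with si-SMaRT lower, as for 20.4% of all genes tested. Those of Sgce, Sntb2 and Drp2 did not overlap either, with si-SMaRT higher, as for 20.2% of all genes. With the GC trend removed, the groups of Sgce and Sntb2 overlapped. The log2 difference of Sntb1 was -0.30 ± 0.26 (SE, limma, adjusted p = 0.808), and -0.39 with the GC trend removed (limma, adjusted p = 0.180). Drp2, a short relative of dystrophin, had the highest log2 difference of these 5. Its values were 4.92 and 6.47 RPKM in si-SCR and 8.15 and 7.03 in si-SMaRT (limma, adjusted p = 0.721).

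Of 11 intracellular partners, 8 were tested, none passed, and the median log2 difference was 0.09. Cav3, the caveolin of muscle, had the lowest log2 difference, with 118 and 106 RPKM in si-SCR and 60.2 and 51.0 in si-SMaRT. Its log2 difference was -1.01 ± 0.26 (SE, limma, adjusted p = 0.122), and -0.85 with the GC trend removed (limma, adjusted p = 0.0355). Ank3, an ankyrin that binds the complex to the cytoskeleton beneath the membrane, had the highest log2 difference. Its values were 1.70 and 1.97 RPKM in si-SCR and 3.25 and 2.93 in si-SMaRT (limma, adjusted p = 0.432). Plec shares its row with Parp10, so its reads cannot be assigned to it alone.

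Of 7 extracellular ligands, 5 were tested and none passed, with a median log2 difference of 0.29. By log2 difference they ranged from Lama2, the laminin chain of muscle basement membrane, to Hspg2 (perlecan). Lama2 had 5.09 and 6.58 RPKM in si-SCR and 5.85 and 5.71 in si-SMaRT. Hspg2 had 5.16 and 7.89 in si-SCR and 13.4 and 4.81 in si-SMaRT. The Hspg2 values of si-SMaRT enclosed those of si-SCR. Of 18 enzymes that build the sugar chains of dystroglycan, 17 were tested and none passed, with a median log2 difference of 0.02. Among them, Dpm1 shares its row with Adnp and Gm20716, and Gmppb shares its row with Gm20529. The reads of those rows cannot be assigned to the enzymes alone. Dpm3, which anchors the synthase of dolichol phosphate mannose, had the lowest log2 difference (limma, -0.96, adjusted p = 0.268). Its values were 17.5 and 15.9 RPKM in si-SCR and 12.2 and 5.93 in si-SMaRT. Pomgnt2 had the highest log2 difference (limma, 0.74, adjusted p = 0.605), with 0.667 and 1.11 RPKM in si-SCR and 2.32 and 0.973 in si-SMaRT.

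**Figure D5:**
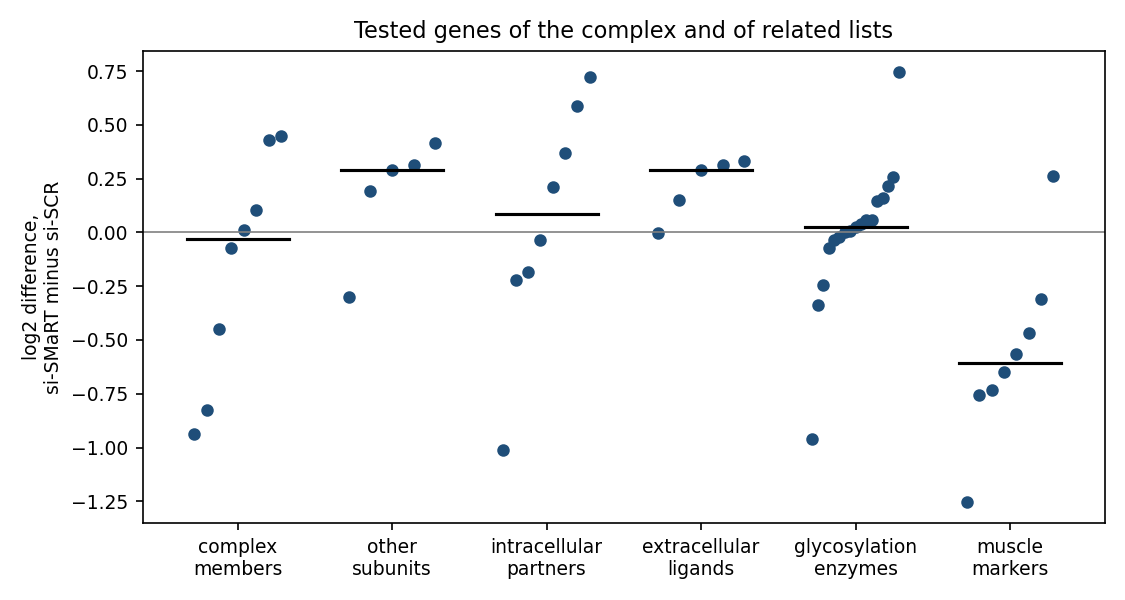
Log2 difference between si-SMaRT and si-SCR (vertical axis) for the tested genes of the complex and of 5 related lists, with a point for each gene in rising order and a black line at the median of each list. The medians are -0.03 for the members, 0.29, 0.09, 0.29 and 0.02 for the other subunits, partners, ligands and glycosylation enzymes, and -0.61 for the muscle markers.

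The genes whose 4 log2 values lay nearest to those of Dmd, each centred on its own mean, were Prelid2, Msmo1 and Ctxn3, with root mean square distances of 0.0287, 0.0407 and 0.0459 against a median of 0.553 over all genes. For Sgca they were Atg101, Scx and Ninj1, with 0.0319, 0.0332 and 0.0491 against a median of 0.609. This likeness is over 4 samples only. The genes were picked as the nearest of all those tested, so their distances lie under the median by choice. Among the peaks of the pull-down, 0 of 345 in the lnc-SMaRT list and 0 of 336 in the LacZ list overlapped an exon or the gene body of a member on its strand, and the same held for the 5 other subunits. The lists give only called peaks, so reads of these genes under the caller's limit are not seen. Lists of this size leave most of the 11642 rows without a peak. The count of 0 therefore does not tell whether lnc-SMaRT contacts these RNAs.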

How the data were processed

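The 4 total RNA libraries (2 si-SCR and 2 si-SMaRT, day 2) were assigned to their groups by the labels. The deposited RPKM values were made by the authors, who trimmed reads with Trimmomatic, discarded rRNA and tRNA reads (Bowtie 2), mapped the others on GRCm38 (TopHat2), counted them per gene with htseq-count in stranded libraries, filtered low genes and calculated RPKM with TMM scaling in edgeR. Pull-down peaks and the p-value listed for each were called by the authors using Piranha. The study's methods describe LacZ peaks relative to the input, and lnc-SMaRT peaks relative to the input and relative to LacZ. Which of these the deposited lnc-SMaRT list holds is not given in the sources used here. Rows that join overlapping genes (576 of 11642) cannot be split.

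Genes whose mean RPKM reached 0.5 were transformed to log2(RPKM + 0.1), and the groups were compared by lmFit and trended eBayes of limma 3.58.1 (R 4.3.3), adjusting p by Benjamini-Hochberg. The p-values rest on 2 samples per group and on a variance that eBayes draws toward a trend over all genes tested. Reads were recovered as whole multiples of the step between the RPKM values of a gene, and for 9501 rows the annotated length (GENCODE M21) fixed the common factor. The recovered reads were used for depth, counting intervals and an alternative with voom. GC trends were removed by loess with a span of 0.3, fitted in each sample to the deviations from the gene mean over all 4 samples. Leave-out fits with GC removal used these same values, so the sample left out had still shaped them. Genes named were the 8 members, lnc-SMaRT, genes of 4 lists (other subunits, partners, ligands, glycosylation enzymes) past the threshold or lowest or highest in their list, and the 3 genes nearest in pattern to Dmd and to Sgca. Genes of the marker lists, and Sgce and Sntb2, were named after their values were seen. Plec, Dpm1 and Gmppb were named because they share a row with other genes. The members and lists were chosen with earlier results of these data known, and no list was tested. Results that need an item withheld from this work are not reported here, and its list was counted without it. Alternatives were other pseudocounts (1 and 0.01), filters, quantile normalization, no variance trend, a replicate block, GC and length correction, voom, and each sample left out. The crossed block and the leave-out fits with GC removal were added after the values were seen. Other steps ran in Python 3.11.15 with scipy 1.17.1, pandas 2.3.3 and numpy 2.4.6, and figures were drawn with matplotlib 3.10.9.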

Additional observations from a re-analysis of the deposited data

How the results depend on the processing

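With 2 samples per group the intervals of single genes are wide, and no list was tested. Dmd and Sgca were lower in si-SMaRT in all 19 and 20 alternatives, from -1.21 to -0.45 and from -1.38 to -0.49 on the log2 scale, and each passed the threshold in 6. Dag1, Dtna and Sspn also kept their sign in all 20. For Dmd, Sgca, Dtna and Sspn the groups did not overlap, so leaving out a sample or changing the pseudocount could not reverse the sign. Their agreement in sign over such fits is no further support. The number of members past the threshold, 0 of 8, was 2 with the GC trend removed, 2 with that and the replicate block, 1 with GC and length trends removed, and 0 to 3 with each sample left out in turn (Sgca and Sspn without si-SMaRT 1, and Dmd, Dag1 and Dtna without si-SMaRT 2). With the GC trend removed it was 2 without si-SMaRT 1, 4 without si-SMaRT 2 and 0 without either si-SCR sample. The other subunits had 1 gene past the threshold with the GC trend removed and si-SMaRT 1 left out, and 0 in the other fits. The partners had 1 with the GC trend removed, also with the block, and 0 to 4 with samples left out. The ligands had 0 to 3 and the glycosylation enzymes 0 to 2 with samples left out, and the enzymes had 1 with GC removal and the block. Over all genes, the 56 calls became 565 with the GC trend removed, 500 with GC and length trends removed, 112 with voom, 96 with the replicate block, 37 with quantile normalization, 24 and 30 without si-SCR 1 and 2, and 2908 and 941 without si-SMaRT 1 and 2. With the GC trend removed they became 0 and 0 without si-SCR 1 and 2, and 1383 and 1137 without si-SMaRT 1 and 2.

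The log2 difference of Utrn changed sign to -0.17 with GC and length trends removed, -0.00030 with the GC trend removed with or without the block, -0.20 and -0.0094 in that fit without si-SCR 1 and si-SMaRT 1, and ranged from -0.18 to 0.20 with samples left out. Sgcb was -0.016 and -0.030 in the GC-removed fit without si-SCR 1 and si-SMaRT 1, and ranged from -0.064 to 0.27 with samples left out. Sgcd ranged from -0.32 to 0.17 with samples left out. The medians changed sign to 0.057 for members and -0.11 for partners at a mean RPKM of at least 5, and, with samples left out, ranged from -0.19 to 0.11 for members, -0.29 to 0.41 for partners and -0.26 to 0.88 for ligands, and reached -0.11 for glycosylation enzymes. With the GC trend removed the other subunits had -0.067 without si-SMaRT 1 and the partners -0.069 without si-SMaRT 2. The cause of these changes was not tested.

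Deviations of the samples that share a replicate number had a correlation of -0.36 across genes, and of -0.15 with the GC trend removed. A correlation across genes cannot tell whether the samples were paired. With the replicate block on the deposited values, 0 members passed the threshold. A crossed pairing, chosen after seeing the data, gave 487 calls over all genes, 1 of them a member, 1 a partner and 1 a glycosylation enzyme.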
